A study of Homo sapiens with 6 samples.

Results

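The knockdown of GYS1 was compared with the control in TOV21G, an established human ovarian clear cell carcinoma line. The comparison takes 4 of the 6 RNA-seq libraries of the series: 2 named siGYS1, labelled as GYS1 knockdown, and 2 named NC, labelled WT. They were chosen by the sample names and labels alone, and every gene of the deposited table was considered. NC is read here as the negative control siRNA, which the labels do not spell out. The other 2 libraries, a p53 knockdown of the same line, entered the fit only to help estimate the spread between libraries. The sources used here do not state the siRNA sequences, when cells were harvested or whether replicates were separate cultures. The p-values therefore measure only the spread between these libraries, and the loss of GYS1 cannot be told apart from effects of its siRNA on other transcripts.

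GYS1 encodes the muscle-type glycogen synthase, which lengthens glycogen chains from UDP-glucose on a glycogenin core. Phosphorylation lowers its activity, and protein phosphatase 1, brought to glycogen by targeting subunits, raises it. Clear cell carcinomas of the ovary owe their name to cytoplasm that is rich in glycogen.

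The labels were checked by the level of the target. GYS1 (ENSG00000104812) lies on the minus strand of chromosome 19 between 48968125 and 48993310 in GRCh38. Its abundance was 37.6 and 33.4 TPM (the authors' unit, reads scaled by transcript length and library) in NC replicates 1 and 2, and 2.33 and 2.15 in siGYS1 replicates 1 and 2. Both knockdown libraries lay far below both controls, at 6.29% of NC in the edgeR fit (log2 fold change -3.99, standard error (SE) 0.11, adjusted p = 1.28e-07 by edgeR's quasi-likelihood test with Benjamini-Hochberg adjustment). Among markers of the line, 9 of 10 clear cell carcinoma and epithelial genes were tested, and PAX8, EPCAM, KRT7, KRT8 and KRT18 each reached at least 5 TPM. The summed level of this list was 883 and 840 TPM in NC and 691 and 722 TPM in siGYS1, and 3 members changed, of which 0 passed in every fit that left out 1 library. Of the markers of other cells, PTPRC and CD3E of leukocytes and KDR of endothelium were at 0 or not listed. The endothelial list summed to at most 0.62 TPM in any of the 4 libraries, the leukocyte list, in which CD68 reached 5 TPM, to between 5.6 and 7.27 TPM, and the fibroblast list to between 15.6 and 26.6 TPM. COL1A1 and DCN were the fibroblast markers that reached 5 TPM. DCN did so in NC replicate 2 alone, at 8.55 TPM on 4 reads, and that library had the highest fibroblast sum. Of the 5 members of these 3 lists that could be tested, 0 changed in edgeR, DESeq2 or limma, and 0 had an unadjusted edgeR p below 0.05. Their part in the results was not tested.

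With GYS1 lowered, 2602 of 13235 tested genes changed at an adjusted p below 0.05 (19.7%), 1379 upward (10.4%) and 1223 downward (9.24%). This count rests on single libraries: it was 926 when NC replicate 2 was left out, 1696 when NC replicate 1 was, 4260 when siGYS1 replicate 2 was, and 1550 or 1571 when a p53 knockdown library was. DESeq2 called 1398 rises and 799 falls, a larger share of rises. The account below leads with genes called "held". These passed with the same sign in the fit of all 6 libraries and in each of the 6 fits that left out 1 library, with no overlap between both NC and both siGYS1 libraries. There were 794 of them (6.0% of the tested genes), 394 higher (2.98%) and 400 lower (3.02%). Their median absolute log2 fold change was 0.77, and 94 rises and 115 falls were at least 2-fold. For each list below, the background is 2.98% held rises and 3.02% held falls, and 10.4% and 9.24% in the full fit. Outside the glycogen lists, a rule named up to 2 members per list by the largest change among held members, or the smallest p where none held. These too were thus picked by their values. Members of a list named beyond 2, and those of the 7 lists said to be added, were chosen after their values were seen.

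**Figure D1:**
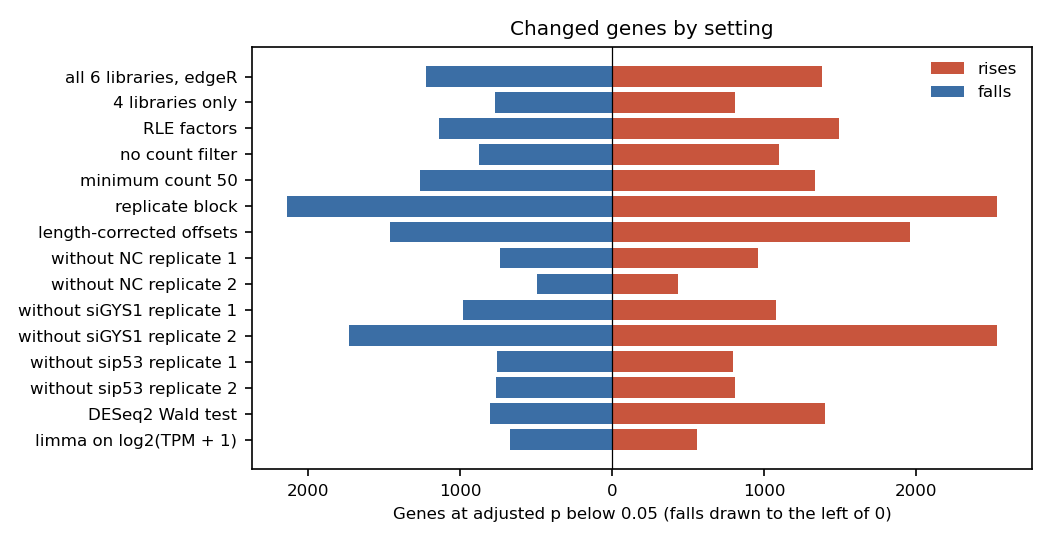
Number of genes at an adjusted p below 0.05 in siGYS1 against NC in each setting, with rises in red to the right of 0 and falls in blue to the left. The full edgeR fit gives 1379 rises and 1223 falls; without NC replicate 2 there are 435 and 491, and without siGYS1 replicate 2 there are 2528 and 1732.

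Agreement of both replicates was described over all tested genes. Across tested genes, the log2 difference siGYS1 1 minus NC 1 had the same sign as siGYS1 2 minus NC 2 in 79.8% of genes, and in 63.4% when the numbers were crossed. The 2 differences in each pair share no library; Pearson's r across genes, which are not independent replicates, was 0.65 and 0.46. The median absolute log2 difference between libraries was 0.13 within NC, 0.17 within siGYS1 and 0.20 between the group means. All 2602 changed genes had the same sign under both pairings, which their selection by a test on these libraries favours. In 7776 tested genes (58.8%) both siGYS1 libraries lay on 1 side of both NC libraries, above them in 28.5% of tested genes and below in 30.2%. Library levels followed transcript length to different degrees: relative to the gene mean, the Spearman correlation of level with exon length was 0.01 and -0.25 in NC and 0.35 and -0.07 in siGYS1. The median exon length was 6012 bases among held rises, 4618 among held falls and 5064 among all tested genes. With library-specific length trends removed, 792 of the 794 held genes were still called with the same sign. That fit took only the 13187 genes with an exon length, so the held gene PDCD6-AHRR, which has none, could not be called. It called more genes in all, 3421 against 2602.

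**Figure D2:**
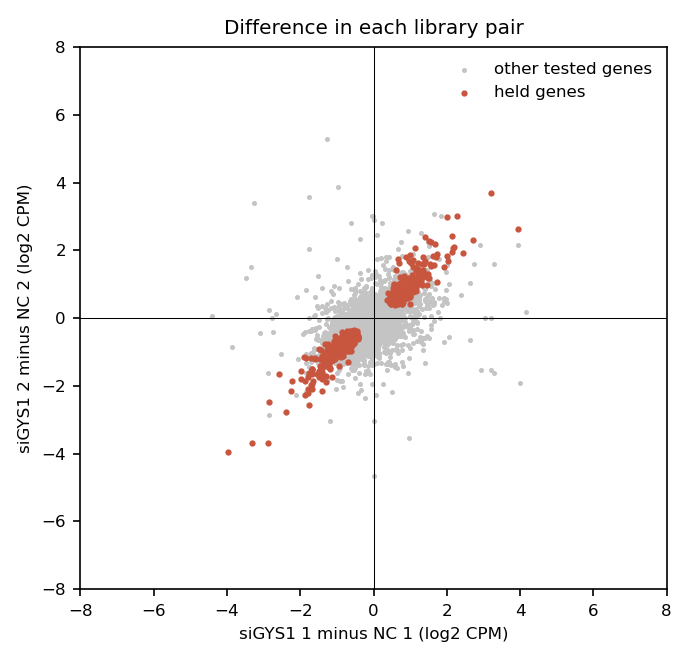
Difference in log2 CPM for siGYS1 replicate 1 minus NC replicate 1 (horizontal) against siGYS1 replicate 2 minus NC replicate 2 (vertical), 1 point per tested gene, with the 794 held genes in red. The held genes were chosen for not overlapping between groups, so they lie in the 2 quadrants where both differences have the same sign, while the 13235 tested genes as a whole have the same sign in 79.8%.

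Beyond GYS1 itself, the genes that make and break down glycogen moved little. Of 8 tested genes of glycogen synthesis, GYS1 alone held; GBE1, the branching enzyme, passed the full test upward (log2 0.42, SE 0.11, edgeR adjusted p = 0.0222) and the phosphoglucomutase PGM2 downward (-0.41, SE 0.11, edgeR adjusted p = 0.0234), neither of them held. GYG1, the glycogenin core protein (log2 0.20), UGP2, which makes UDP-glucose (-0.10), and PGM1 (0.11) did not pass. Of 8 tested genes of glycogen breakdown, the phosphorylase kinase subunit gene PHKA2 passed (-0.41, not held). The phosphorylases PYGB and PYGL and the lysosomal glucosidase GAA had log2 fold changes between -0.07 and 0.08 and did not pass. The kinases of the synthase, GSK3A and GSK3B, were at -0.04 and 0.03.

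One regulator of glycogen held. PPP1R3B, which targets protein phosphatase 1 to glycogen, was at 15.1 and 12.5 TPM in NC and 27.0 and 21.6 TPM in siGYS1. Both siGYS1 values were above both NC values (log2 0.78, SE 0.11, edgeR adjusted p = 0.00152). PPP1CB, a catalytic subunit of that phosphatase, passed the full test (0.43, SE 0.09) without holding, and the catalytic subunits PPP1CA and PPP1CC did not pass (-0.04 and 0.01). No other of the 14 tested regulators passed.

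Among 10 tested genes of and around the AMP-activated kinase, an energy sensor that binds glycogen, 2 regulatory subunit genes held in opposite directions. PRKAG1 was at 54.1 and 49.7 TPM in NC and 22.9 and 25.4 TPM in siGYS1 (log2 -1.10, SE 0.11, edgeR adjusted p = 0.000213). PRKAG2 was at 67.9 and 60.8 TPM in NC and 127 and 126 TPM in siGYS1 (1.00, SE 0.09, edgeR adjusted p = 0.000133). Both siGYS1 libraries lay below both controls for PRKAG1 and above both for PRKAG2. PRKAA2 (0.56, SE 0.16), CAB39 (0.34, SE 0.08) and CAMKK2 (0.305, SE 0.09) rose in the full fit without holding. This makes 4 rises and 1 fall, with a median of 0.21 over the 10 genes.

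The largest held rises, among genes with a mean of at least 1 TPM, were in genes of low level in the controls. CSF2, the cytokine GM-CSF, was at 0.44 and 0.27 TPM in NC and 2.65 and 4.07 TPM in siGYS1 (log2 3.21, SE 0.47). CCL5, a chemokine, went from 0.63 and 0.51 to 2.96 and 2.39 TPM (log2 2.10, SE 0.39). TM4SF19, a 4-span membrane protein gene, had 3.02 and 3.69 TPM in NC and 14.9 and 14.5 TPM in siGYS1 (log2 2.10, SE 0.18). The siGYS1 libraries of each lay above both NC libraries, and TM4SF19 reached the highest level of the 12 largest rises.

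HRK, a BH3-only activator of apoptosis, was at 0.59 and 0.54 TPM in NC and 2.73 and 2.36 TPM in siGYS1. BIRC7, an inhibitor of apoptosis, was at 2.2 and 2.04 TPM in NC and 7.34 and 10.4 TPM in siGYS1 (log2 2.03, SE 0.23, edgeR adjusted p = 0.000468). HSPB8, a small heat shock protein that works in chaperone-assisted autophagy, went from 0.61 and 0.33 to 1.75 and 1.99 TPM (log2 2.04, SE 0.36). ABCA12, a lipid transporter, and ANKRD12, an ankyrin repeat protein gene, rose by 1.96 (SE 0.16) and 1.87 (SE 0.20). TMEM265 rose as well, but 1 NC library had 0 TPM, and its log2 fold change ran from 2.57 to 8.33 when single libraries were left out.

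The largest held falls reached genes of higher level. PNPLA6, a lysophospholipase of the endoplasmic reticulum, was at 46.9 and 33.9 TPM in NC and 10.1 and 7.97 TPM in siGYS1. CCR10, a chemokine receptor gene, went from 25.1 and 23.6 to 3.42 and 3.59 TPM (log2 -2.62, SE 0.15). LCMT1, the methyltransferase of the catalytic subunit of protein phosphatase 2A, went from 39.2 and 41.3 to 8.68 and 11.6 TPM (log2 -2.03, SE 0.16). In each gene both siGYS1 values lay far below both control values. GJA5, which encodes the gap junction protein connexin 40, went from 2.97 and 3.05 to 0.33 and 0.37 TPM (log2 -2.82, SE 0.28). SAMD11 (-2.15, SE 0.26), FNDC10 (-1.93, SE 0.34) and BIN1 (-1.89, SE 0.11), a membrane-bending protein gene, followed. Their edgeR adjusted p-values lay between 5.25e-06 for PNPLA6 and 0.00478 for FNDC10.

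**Figure D3:**
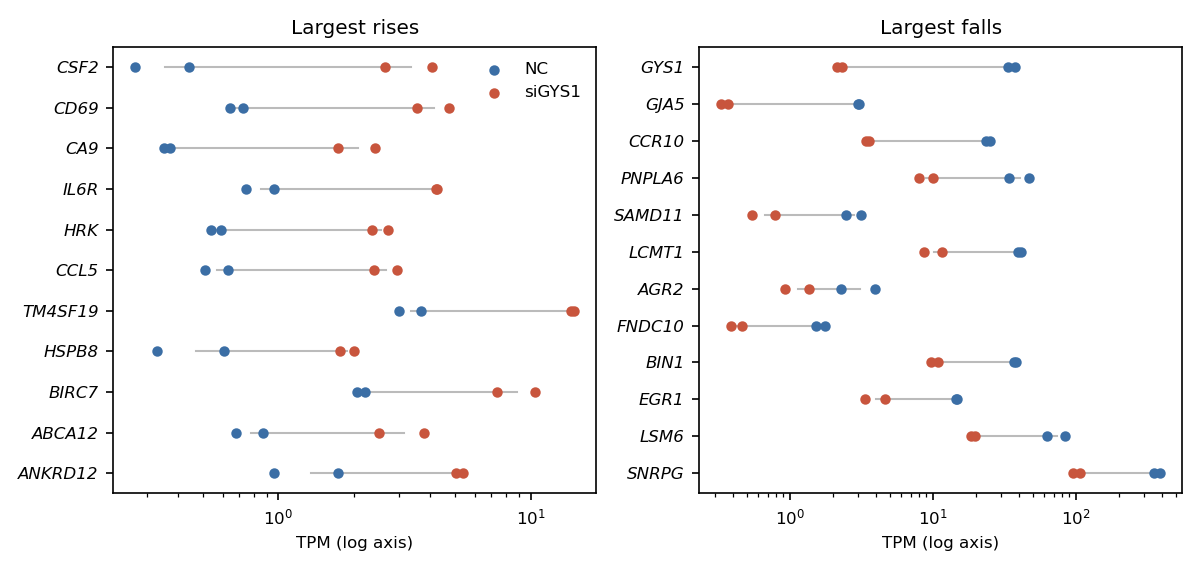
TPM on a log axis in each library for the largest held rises (left, without TMEM265, which is at 0 in 1 library) and falls (right), with NC in blue, siGYS1 in red and grey lines joining the group means. In no gene do both groups overlap, and the falls, such as SNRPG at 352 and 388 TPM in NC, reach higher levels than the rises.

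In amount of transcript, ferritin led. FTH1, the heavy chain of the iron store ferritin, was at 15690.2 and 15979 TPM in NC and 28085 and 32029 TPM in siGYS1. Both knockdown libraries were clearly above both controls (log2 0.88, SE 0.10, edgeR adjusted p = 0.000583), and the share of all TPM taken by FTH1 went from 1.57% and 1.6% to 2.81% and 3.2%. The light chain gene FTL, at 2193 and 2498 TPM in NC and 2806 and 3425 TPM in siGYS1, narrowly missed the threshold (log2 0.42, edgeR adjusted p = 0.052). FTH1 has many near-identical processed pseudogenes, so its count depends on how the authors assigned shared reads. All held rises together took 3.87% and 3.82% of TPM in NC and 6.52% and 6.79% in siGYS1, and 2.3% and 2.22% against 3.71% and 3.59% with FTH1 left out. All held falls took 2.68% and 2.65% in NC and 1.5% and 1.49% in siGYS1. These shares describe genes chosen by their change and support nothing by themselves.

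Iron genes that were added to the lists after the values were seen moved in both directions. HMOX1, which releases iron from haem, went from 36.5 and 36.4 to 90.8 and 95.9 TPM (log2 1.38, SE 0.12, edgeR adjusted p = 0.000133). TFRC, the transferrin receptor that imports iron, went from 145 and 118 to 75.4 and 60.2 TPM (log2 -0.96, SE 0.11, edgeR adjusted p = 0.000443). Of 13 tested genes of iron storage, import and export, FTH1 and HMOX1 were the held rises and TFRC the held fall. In all 3 the groups did not overlap. The importer gene SLC11A2 (0.51, SE 0.10) and IREB2, which encodes an iron-sensing regulator (0.48, SE 0.14), also rose in the full fit without holding, which makes 4 rises and 1 fall.

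Metallothioneins, small cysteine-rich proteins that bind zinc and copper, were higher as far as they could be called. Of 7 tested, 3 changed upward, 2 of them held and none fell, with a median log2 fold change of 0.62 against -0.01 for all tested genes. MT2A was at 4404 and 5280 TPM in NC and 6708 and 7316 TPM in siGYS1 (log2 0.62, SE 0.13, edgeR adjusted p = 0.00883). MT1E was at 109 and 123 TPM in NC and 196 and 211 TPM in siGYS1 (0.83, SE 0.12, edgeR adjusted p = 0.00194). Both knockdown libraries were above both controls in either gene. MT1X passed without holding (0.47), and the copies are so alike that reads may be shared among them. The TPM of MT2A is also raised by a short length, about 120 bases, that the authors' table implies.

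The start of MT2A is shown because metallothionein promoters are known for metal response elements, which bind the metal-sensing factor MTF1. The capitals mark matches to the core TGCNCNC on either strand, in the 300 bases from 250 before to 50 after the RefSeq start (GRCh38.p14, chr16:56608334-56608633, plus strand). MT2A holds 8 matches, and the matching window of MT1X, which did not hold in the fits, has 4. The windows of MT1E, which held, and of the other metallothioneins were not scanned. At least 1 match occurred in 55.9% of 35116 RefSeq windows of this length and 8 or more in 25 windows (0.0712%). A match is a string of letters and not a measured site.
MT2A: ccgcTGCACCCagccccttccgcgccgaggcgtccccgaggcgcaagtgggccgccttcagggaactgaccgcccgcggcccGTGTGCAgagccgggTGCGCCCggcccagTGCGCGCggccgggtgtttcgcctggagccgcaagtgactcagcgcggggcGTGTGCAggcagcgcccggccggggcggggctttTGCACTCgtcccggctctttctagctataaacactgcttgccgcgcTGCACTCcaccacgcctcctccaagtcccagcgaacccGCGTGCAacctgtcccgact

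Chemokines were the family with the densest held changes among those with at least 10 tested members. Aldo-keto reductases, below that size, held as densely, with 1 of 6 upward and 2 downward. So did carbonic anhydrases, a list added afterwards, with 1 of 9 upward and 4 downward. Of 16 tested chemokine and receptor genes, 6 held upward and 2 downward, beside 2.98% and 3.02% of all tested genes. In the full fit 7 rose and 3 fell. Their median was 0.10, and between 0.18 and 0.24 when 1 NC or siGYS1 library was left out. CXCL8, which attracts neutrophils, was at 381 and 338 TPM in NC and 812 and 712 TPM in siGYS1 (log2 1.08, SE 0.08, edgeR adjusted p = 6.42e-05). CCL20, the ligand of CCR6, went from 255 and 240 to 629 and 587 TPM (1.31, SE 0.08, edgeR adjusted p = 3.46e-05). CXCL5, another neutrophil attractant, went from 1095 and 917 to 1603 and 1383 TPM (0.56, SE 0.09, edgeR adjusted p = 0.00255). Both siGYS1 libraries exceeded both controls in each of these 3 genes.

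The other members did not all follow. CXCL2 (405 and 397 to 554 and 552 TPM; log2 0.47, SE 0.08) and CXCL12 (1.57 and 1.54 to 3.82 and 3.44 TPM; log2 1.44, SE 0.18) held upward with CCL5. CCL2, a monocyte attractant, held downward (23.1 and 23.8 to 11.5 and 11.6 TPM; log2 -1.0, SE 0.15) with CCR10. CXCL1, the most abundant at 2691 and 2527 TPM in NC, did not pass (log2 0.14, edgeR adjusted p = 0.24), nor did CXCL6 (0.01). CXCL3 fell in the full fit (-0.38, SE 0.09, edgeR adjusted p = 0.0202) without holding. CXCL1, CXCL2 and CXCL3 are close copies, so reads may be shared among them.

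Promoters of 4 held chemokine genes are shown because members of this family are known targets of NF-kB. The windows run from 250 bases before to 50 after the RefSeq start and read 5′ to 3′ on the gene's strand (GRCh38.p14: CXCL8, chr4:73740319-73740618, plus; CCL20, chr2:227813592-227813891, plus; CXCL5, chr4:73998628-73998927, minus; CXCL2, chr4:74099146-74099445, minus). Capitals mark matches to the NF-kB type word GGNNTTTCC on either strand. The word occurred in 6.26% of the 35116 windows, once each in CXCL8, CCL20 and CXCL5, and 2 times in CXCL2. It occurred 2 times each in CXCL1 and CXCL3 and once in CXCL6 too, which did not hold, and 0 times in CXCL12, which did. The windows of the other members were not scanned.
CXCL8: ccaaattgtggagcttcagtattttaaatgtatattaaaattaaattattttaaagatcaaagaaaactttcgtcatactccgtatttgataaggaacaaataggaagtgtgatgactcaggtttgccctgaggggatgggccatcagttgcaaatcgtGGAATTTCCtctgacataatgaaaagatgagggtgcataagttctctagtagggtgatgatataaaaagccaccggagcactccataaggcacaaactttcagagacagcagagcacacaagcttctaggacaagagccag
CCL20: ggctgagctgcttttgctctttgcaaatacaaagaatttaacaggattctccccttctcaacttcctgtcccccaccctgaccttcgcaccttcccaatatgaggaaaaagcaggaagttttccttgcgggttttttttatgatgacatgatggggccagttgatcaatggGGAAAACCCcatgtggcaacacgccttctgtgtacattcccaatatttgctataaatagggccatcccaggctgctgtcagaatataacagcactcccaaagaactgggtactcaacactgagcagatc
CXCL5: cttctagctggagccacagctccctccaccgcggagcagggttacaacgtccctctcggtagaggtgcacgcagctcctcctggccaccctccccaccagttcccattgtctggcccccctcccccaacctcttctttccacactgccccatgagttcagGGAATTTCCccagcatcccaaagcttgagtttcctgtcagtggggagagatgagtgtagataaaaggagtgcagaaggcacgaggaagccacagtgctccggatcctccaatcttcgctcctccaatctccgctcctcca
CXCL2: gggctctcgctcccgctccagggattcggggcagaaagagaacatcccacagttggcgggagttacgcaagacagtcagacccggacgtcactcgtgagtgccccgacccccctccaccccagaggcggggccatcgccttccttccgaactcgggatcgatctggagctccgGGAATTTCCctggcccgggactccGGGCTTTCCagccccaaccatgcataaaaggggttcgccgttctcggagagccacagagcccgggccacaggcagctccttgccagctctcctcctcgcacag

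Other abundant genes that gained were SOD2, the manganese superoxide dismutase of mitochondria (489 and 417 to 941 and 851 TPM; log2 1.03, SE 0.10), LITAF, an endosomal membrane protein gene (569 and 571 to 1024 and 936 TPM; 0.67, SE 0.08), and AKR1B1, aldose reductase (2253 and 2152 to 2929 and 3590.1 TPM; 0.57, SE 0.12). SOD2 stood apart from other enzymes against superoxide and peroxide in a list of 17 tested genes added afterwards. The held falls of that list were PRDX6, a peroxiredoxin (211 and 207 to 130 and 135 TPM; -0.66, SE 0.09), MGST3 (-0.54, SE 0.09) and GPX8 (-0.48, SE 0.09).

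Among abundant losses, RPS27, a protein of the small ribosomal subunit, went from 4124 and 4776 to 1723 and 1902 TPM (log2 -1.19, SE 0.12, edgeR adjusted p = 0.000223). It was the one held member of 80 tested genes of cytosolic ribosomal proteins. Of these 2 fell in the full fit, 1 when NC replicate 2, siGYS1 replicate 1 or a p53 knockdown library was left out, and 14 when siGYS1 replicate 2 was. Their median, -0.09, turned to 0.04 without NC replicate 2 and to 0.04 without siGYS1 replicate 1, and was -0.21 without NC replicate 1 or siGYS1 replicate 2. Its paralogue RPS27L was at 370 and 375 TPM in NC and 320 and 382 TPM in siGYS1 (-0.07). HSP90AA1, the stress-inducible HSP90, went from 634 and 620 to 233 and 218 TPM (-1.49, SE 0.08, edgeR adjusted p = 1.5e-05), whereas its constitutive paralogue HSP90AB1 was at 1139 and 1131 TPM in NC and 1157 and 1148 TPM in siGYS1 (0.02, edgeR adjusted p = 0.906). In RPS27 and HSP90AA1 both siGYS1 libraries lay below both controls; the difference from the paralogue was not tested. RPS27 and HSP90AA1 have processed pseudogenes, and their counts depend on how shared reads were assigned.

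Other large losses of TPM were in CD24, a surface glycoprotein (2353 and 2188 to 1421 and 1320 TPM; log2 -0.74, SE 0.07), CFL1, the actin-severing cofilin (-0.51, SE 0.09), HMGN2, a nucleosome-binding protein gene (-0.79, SE 0.12), and COMP, an extracellular matrix protein (559 and 598 to 239 and 230.3 TPM; -1.31, SE 0.09). While CFL1 fell, its paralogue CFL2 rose (35.0 and 30.1 to 46.6 and 37.9 TPM; 0.54, SE 0.09).

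**Figure D4:**
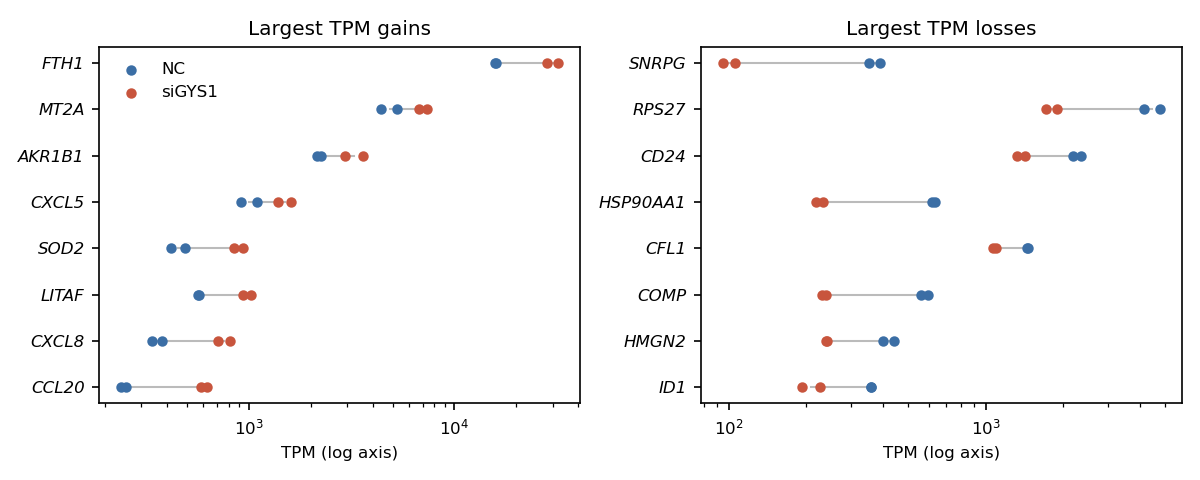
TPM on a log axis in each library for the held genes with the largest gains (left) and losses (right) of mean TPM, with NC in blue, siGYS1 in red and grey lines joining the group means. FTH1 sits far above the others, at 28085 and 32029 TPM with siGYS1, and the groups do not overlap in any gene shown.

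Sm and LSm proteins form the rings that carry spliceosomal RNAs and that guide decay of messenger RNAs. SNRPG, an Sm ring protein, was at 352 and 388 TPM in NC and 106 and 94.9 TPM in siGYS1 (log2 -1.84, SE 0.13, edgeR adjusted p = 5.72e-05). LSM6, a member of both LSm rings, was at 62.7 and 83.8 TPM in NC and 19.6 and 18.5 TPM in siGYS1 (-1.88, SE 0.17, edgeR adjusted p = 0.000147). The groups lay far apart in both genes. They were the 2 held falls of 18 tested ring genes, a list added afterwards. LSM11, of the ring that processes histone messages, held upward (2.75 and 2.76 to 6.18 and 4.88 TPM; 0.99, SE 0.12). SNRPE and SNRPF, other Sm ring genes, did not pass (0.11 and -0.22).

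Genes of small RNA pathways and of message decay held upward where they held. DICER1, the nuclease that cuts precursors of small RNAs, was at 11.7 and 9.0 TPM in NC and 27.0 and 18.1 TPM in siGYS1 (log2 1.2, SE 0.17, edgeR adjusted p = 0.00189). TNRC6A, the scaffold of silencing complexes, went from 8.88 and 6.53 to 19.1 and 13.2 TPM (1.03, SE 0.15, edgeR adjusted p = 0.00186). These were the held members of 16 tested genes, 0 of which held downward. The full fit called 4 rises and 2 falls there, the falls being TSN (-0.41, SE 0.08) and PRKRA (-0.32, SE 0.09). The median of the 16 was 0.12, and 0.04 with length trends removed. For DICER1 and TNRC6A the level was higher in siGYS1 replicate 1 than in replicate 2, and the lower knockdown value was above both controls. DCP2, the decapping enzyme (14.2 and 11.6 to 34.2 and 23.6 TPM; 1.08, SE 0.11), and BTG2, which recruits deadenylases (22.3 and 18.3 to 51.8 and 49.6 TPM; 1.32, SE 0.10), were the held members of 31 tested genes of deadenylation and decapping. Of 16 tested genes of nonsense-mediated decay 0 changed in edgeR, with SMG1 nearest (0.63, edgeR adjusted p = 0.0508). There, 3 had an unadjusted edgeR p below 0.05, DESeq2 called 0 and limma on log2(TPM + 1) called 1. In edgeR itself 1 rose when NC replicate 1 or siGYS1 replicate 2 was left out, and 1 rose and 1 fell with length trends removed.

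Several genes of the ciliary transition zone, the gate at the base of the primary cilium, fell. Of 44 tested genes of ciliary transport and basal body, 5 held downward and 1 upward, with a median log2 fold change of -0.21 against -0.01 for all tested genes. TMEM216 was at 11.4 and 11.2 TPM in NC and 5.25 and 5.79 TPM in siGYS1 (-1.02, SE 0.17, edgeR adjusted p = 0.00358). B9D1 was at 58.4 and 62.3 TPM in NC and 34.9 and 41.2 TPM in siGYS1 (-0.78, SE 0.12, edgeR adjusted p = 0.00214). TMEM231 (-0.74, SE 0.11) and TCTN3 (-0.46, SE 0.08) belong to the same zone, and TTC8 (-0.69, SE 0.10) to the BBSome, which carries membrane proteins in cilia. CEP290, also of the transition zone, went the other way (3.66 and 2.93 to 6.09 and 5.16 TPM; 0.95, SE 0.17). The full fit called 15 falls; it called 5 when NC replicate 2 was left out, 8 when NC replicate 1 was, 9 when a p53 knockdown library was, and 17 with length trends removed.

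Several enzymes of the secretory pathway that form disulfide bonds fell. In a list of 22 tested genes, which are protein disulfide isomerases and relatives apart from the caspase gene CASP2, 4 held downward and 0 upward, with a median of -0.12. In the full fit the oxidase gene ERO1A rose without holding (0.56, SE 0.12), as did CASP2 (0.46, SE 0.09). QSOX1, a sulfhydryl oxidase, was at 136 TPM in both NC libraries and 39.1 and 37.8 TPM in siGYS1 (log2 -1.77, SE 0.09, edgeR adjusted p = 1.47e-05). TXNDC5 went from 181 and 171 to 96.7 and 95.4 TPM (-0.88, SE 0.08), and TMX4 (-0.79, SE 0.10) and AGR2 (-2.01, SE 0.30), which helps fold mucins, were the other 2. In QSOX1 and TXNDC5 the 2 libraries of a group were close together and the groups far apart. Of 37 tested COPI and COPII coat genes, which bud vesicles between the endoplasmic reticulum and Golgi, 1 held, PREB (-0.56, SE 0.10). Of all tested genes 3.02% held downward. In the full fit 8 of the 37 fell and 0 rose, beside 9.24% and 10.4% of all tested genes. These falls were 2 when either NC library or a p53 knockdown library was left out, 5 when siGYS1 replicate 1 was and 13 when siGYS1 replicate 2 was.

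Enzymes that act on aldehydes and ketones were lower in several members. Of 14 tested aldehyde dehydrogenases 3 held downward and 0 upward, with a median of -0.26. ALDH3A2, which oxidises fatty aldehydes, was at 43.0 and 36.0 TPM in NC and 19.7 and 18.01 TPM in siGYS1 (log2 -1.02, SE 0.09, edgeR adjusted p = 0.000141). ALDH1A1, which makes retinoic acid, went from 18.7 and 18.4 to 12.2 and 10.9 TPM (-0.72, SE 0.10), and ALDH16A1 was at -0.57 (SE 0.10). Of 6 tested aldo-keto reductases, AKR1C1 (-0.89, SE 0.14) and AKR1C2 (-1.05, SE 0.20) held downward and AKR1B1 upward. AKR1C1 and AKR1C2 are near-identical in sequence, so reads may be shared between them.

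Carbonic anhydrases, which interconvert carbon dioxide and bicarbonate, split by member in a list added afterwards. CA9, a membrane-bound form, was at 0.35 and 0.37 TPM in NC and 2.42 and 1.72 TPM in siGYS1 (log2 2.48, SE 0.38, edgeR adjusted p = 0.00266). CA4 went from 51.6 and 52.7 to 22.9 and 26.7 TPM (-1.07, SE 0.13), CA12 from 10.5 and 9.78 to 5.59 and 4.7 TPM (-1.06, SE 0.11), and CA14 from 10.1 and 8.29 to 2.57 and 3.04 TPM (-1.73, SE 0.16). CA9 is thus the least abundant of these 4 membrane-bound forms in the controls, and of the 4 it alone rose. CA11, a member without catalytic activity, held downward too (-0.80, SE 0.15), which makes 1 held rise and 4 held falls of 9 tested.

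Lipid genes held in both directions. PLIN2, a coat protein of lipid droplets, was at 110 TPM in both NC libraries and 324 and 334 TPM in siGYS1 (log2 1.57, SE 0.10, edgeR adjusted p = 3.68e-05). BSCL2, the seipin gene of droplet formation, went from 14.8 and 13.4 to 4.82 and 4.89 TPM (-1.63, SE 0.15, edgeR adjusted p = 0.000191). These 2 were the held members of 15 tested droplet genes in a list added afterwards. UGCG, which makes glucosylceramide, held upward (38.2 and 31.1 to 73.9 and 59.5 TPM; 0.94, SE 0.10) with SGPP1, a sphingosine phosphate phosphatase gene (0.62), and SPTLC3, a subunit of serine palmitoyltransferase, held downward (-0.82, SE 0.11). Of 29 tested sphingolipid genes 7 rose and 1 fell in the full fit; the rises were 2 without NC replicate 2, 4 without any other library but siGYS1 replicate 2, and 12 without that one. ABCG1, a cholesterol exporter, fell (7.87 and 6.7 to 2.5 and 2.39 TPM; -1.46, SE 0.14). PIP4K2A, a phosphoinositide kinase, rose (55.6 and 37.1 to 145 and 116 TPM; 1.27, SE 0.09) and the phosphatase gene OCRL fell (-0.78, SE 0.10).

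Among transcription factors, the KLF and SP family held in 1 direction. Of 20 tested members 4 held upward and 0 downward, with a median log2 fold change of 0.23. KLF6 was at 75.0 and 63.1 TPM in NC and 177 and 138 TPM in siGYS1 (1.17, SE 0.11, edgeR adjusted p = 0.000148), and KLF3 (0.65, SE 0.09), KLF10 (0.58, SE 0.09) and KLF11 (0.54, SE 0.09) were the others. The zinc finger gene EGR1 fell (14.7 and 14.4 to 4.6 and 3.35 TPM; -1.89, SE 0.13). Of 432 tested genes with ZNF symbols 5 held upward and 4 downward, shares below those of all tested genes. Among 37 tested nuclear receptors and coregulators, PPARG, the receptor of fat cell formation, rose (53.4 and 50.4 to 81.0 and 88.4 TPM; 0.72, SE 0.10). RARG, a retinoic acid receptor gene, fell (17.6 and 14.7 to 6.86 and 7.3 TPM; -1.17, SE 0.12).

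Of 31 tested genes of BMP and SMAD signalling 4 held upward and 2 downward, with a median of 0.01. INHBA, the subunit of activin A, was at 22.1 and 18.5 TPM in NC and 62.4 and 43.0 TPM in siGYS1 (log2 1.36, SE 0.16, edgeR adjusted p = 0.000605), and its receptor gene ACVR2B rose by 0.93 (SE 0.17). SMAD7 (0.66, SE 0.09) and SMURF1 (0.51, SE 0.09), which restrain the pathway, held upward as well. ID1, a target of BMP signals, went from 356 and 358 to 192 and 226 TPM (-0.76, SE 0.12), and ID4 fell by 0.63 (SE 0.10). ID3 passed the full test (-0.42) without holding.

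Phosphatase genes were described in several lists. PTPRJ, a receptor-type tyrosine phosphatase, was at 46.0 and 37.6 TPM in NC and 83.2 and 61.6 TPM in siGYS1 (log2 0.79, SE 0.12), and PTPRF went from 47.9 and 39.6 to 81.1 and 64.5 TPM (0.71, SE 0.10). Of 27 tested tyrosine phosphatases 3 held upward and 0 downward. DUSP5, a nuclear phosphatase of ERK, went from 63.4 and 61.6 to 115 and 118 TPM (0.90, SE 0.10), with DUSP3 (0.80, SE 0.09), while DUSP6, a cytoplasmic phosphatase of ERK, fell by 0.46 (SE 0.09). The DUSP family had 19 tested genes, with 2 held upward and 1 downward, and 8 rises and 2 falls in the full fit. In protein phosphatase 2A, beside the fall of LCMT1, the scaffold gene PPP2R1B (0.79, SE 0.09) and the regulatory subunit gene PPP2R2C (0.73, SE 0.10) held upward among 26 tested genes. The full fit called 2 rises and 4 falls there. The falls were LCMT1 and, without holding, PPP2R3A (-0.60, SE 0.13), PPP2R5D (-0.33, SE 0.09) and PTPA (-0.34, SE 0.10). MAP2K6, an activator of p38, fell (3.88 and 3.38 to 1.44 and 1.21 TPM; -1.49, SE 0.19), and MAPK6 rose (24.1 and 20.7 to 51.5 and 43.0 TPM; 1.07, SE 0.09). Their list, the MAP kinase cascade with 46 tested genes, had 3 held in each direction, and 9 rises and 10 falls in the full fit.

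In membrane traffic, genes held in both directions. CAV1 and CAV2, the coat proteins of caveolae, went from 80.2 and 75.8 to 126 and 118 TPM and from 73.9 and 62.7 to 118 and 102 TPM, each with a log2 fold change of 0.62 (SE 0.08). EHD1, of endosome recycling, rose by 0.62 (SE 0.09), while BIN1 (38.0 and 37.1 to 9.74 and 10.8 TPM) and SH3GL1 (-0.92, SE 0.12), which both sense membrane curvature, fell. These were the held members of 39 tested genes of endocytosis. Of 23 tested V-ATPase subunits, which acidify lysosomes, ATP6V1C1 (0.68, SE 0.09) and ATP6V1B2 (0.45, SE 0.09) held upward and 0 downward. The full fit called 2 rises and 2 falls in this family. Of 244 tested genes with SLC symbols, most of which encode solute carriers, 11 held in each direction. SLC2A4RG, which encodes a transcription factor and no carrier, is 1 of the held falls (-1.20). SLC12A1, the kidney-type sodium, potassium and chloride carrier, went from 1.01 and 1.2 to 0.08 and 0.05 TPM (-4.30, SE 0.53), on 3 reads in both siGYS1 libraries together. SLC7A8, an amino acid carrier gene, rose (0.37 and 0.33 to 1.24 and 1.75 TPM; 1.94, SE 0.30).

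**Figure D5:**
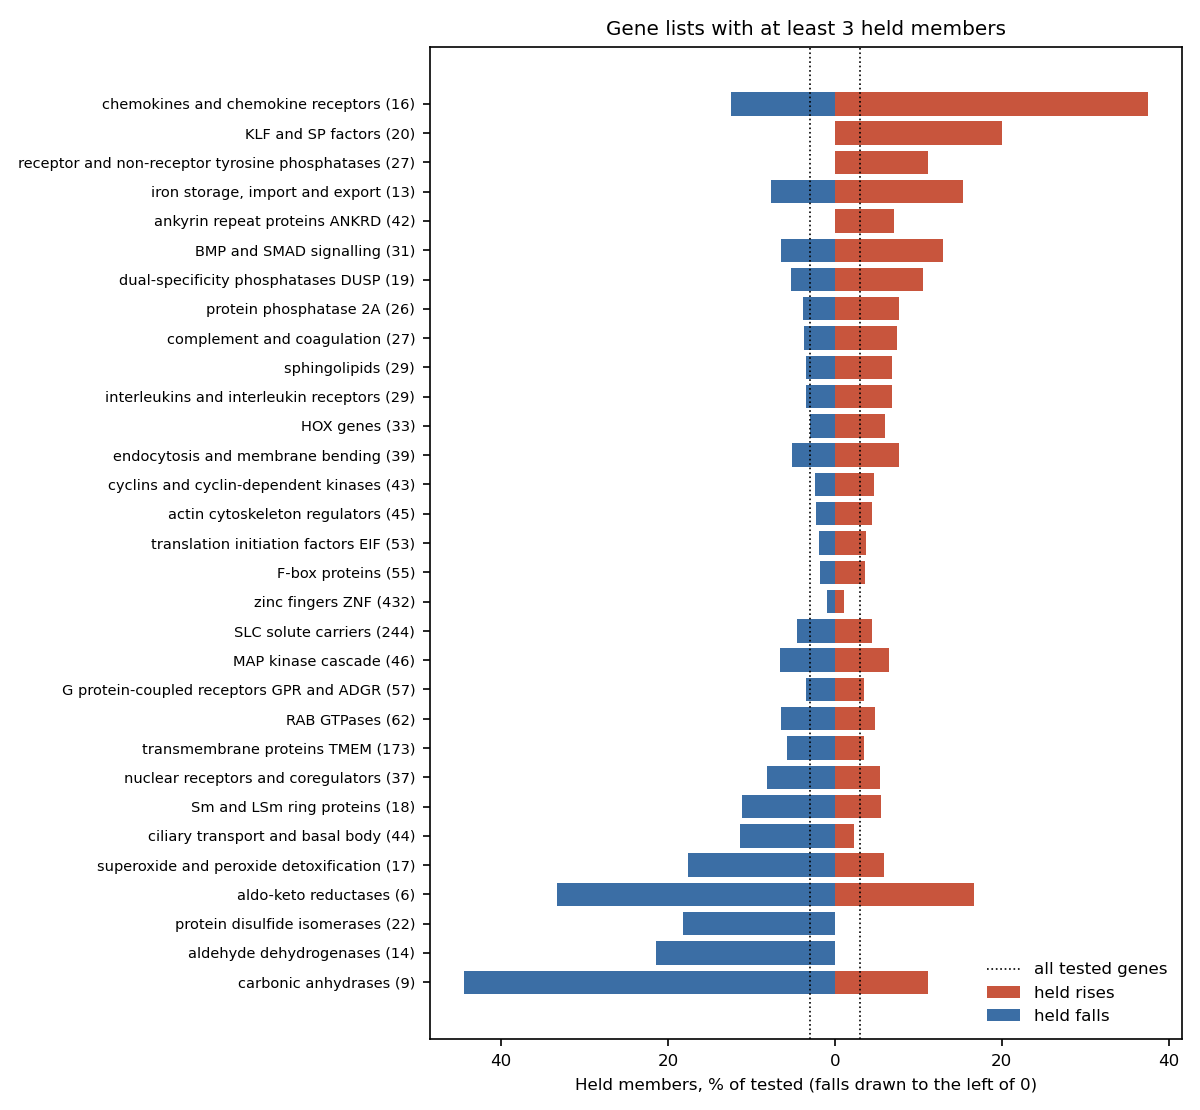
Percent of tested members that held upward (red, right of 0) and downward (blue, left of 0) for every list with at least 3 held members, with the number tested in brackets; dotted lines are the 2.98% and 3.02% of all tested genes. Chemokines reach furthest upward, with 6 of 16, and carbonic anhydrases furthest downward, with 4 of 9. The carbonic anhydrase list was added after its values were seen, which favours such a place. The lists of Sm and LSm rings, of iron, and of superoxide and peroxide detoxification were added in the same way.

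Several large families held at or below the share of all tested genes. Of 38 tested proteasome genes 0 held and 2 fell in the full fit, among them PSMB1 (log2 -0.51, edgeR adjusted p = 0.0282). Those falls were 0 when NC replicate 2, siGYS1 replicate 1 or a p53 knockdown library was left out, and 11 when siGYS1 replicate 2 was. Of 78 tested genes of the mitochondrial ribosome 1 held, MRPS31 (-0.65, SE 0.09), and 5 fell in the full fit. These were 1 when NC replicate 2 was left out, 2 when siGYS1 replicate 1 or a p53 knockdown library was, and 23 when siGYS1 replicate 2 was. None of 50 tested DEAD and DEAH box helicases held. Of 35 tested protocadherins 0 held and 5 fell in the full fit, 1 without NC replicate 1 and 3 without NC replicate 2 or a p53 knockdown library. Their median was -0.48, but -0.26 without NC replicate 1 and -0.13 without siGYS1 replicate 2, with PCDHGB5 at 0.67 and 0.63 TPM in NC and 0.2 and 0.29 TPM in siGYS1.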

How the data were processed

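RNA from TOV21G cells was sequenced in 6 libraries, 2 each of NC, siGYS1 and a p53 knockdown. The deposited table gives, per the file headers, a read count, a normalized read count, TPM and FPKM for 16910 genes. The deposited read count of the authors is an expected count, as 16.8% to 18.1% per library are not whole (tolerance 1e-09), and they sum to between 17425000 and 18097337. The authors' TPM sum to 1000000 per library. The deposited normalized read count is a normalized signal, 1 constant per library (0.944 to 1.03) times the read count, and was not used. The authors' FPKM served to derive the length behind each TPM. The submitters' processing notes name, without versions or roles, the aligners HISAT2, STAR and TopHat, the counters featureCounts, HTSeq and Salmon, as well as cutadapt, Trimmomatic, FastQC, edgeR and DESeq2, and the mouse build mm10, although 16830 identifiers are in the human GENCODE 29. The sources used here state neither strandedness nor the treatment of shared reads.

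Counts were rounded and fitted in edgeR 4.0.16 (R 4.3.3): filterByExpr with a minimum count of 10 (3675 genes removed, 13235 left), TMM factors, glmQLFit and glmQLFTest with group as the sole term over all 6 libraries (3 residual degrees of freedom). Each SE is the size of the log2 fold change over the root of F. The procedure was tested on simulated counts. Alternatives used DESeq2 1.42.0, limma 3.58.1 on log2(TPM + 1), RLE factors, other count filters, 4 libraries, a replicate block, length-corrected offsets and leaving out each library.

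Members, lists and tests were chosen with earlier results of these data known, and 7 lists were added after the values were seen. Lists (34 curated, 43 by symbol) are described by counts and medians, with no set test. Genes were named by a rule: GYS1; among held protein-coding genes the 12 largest rises and falls with a mean of at least 1 TPM and the 8 largest gains and losses of TPM; all glycogen genes; and up to 2 members per list. Some genes the rule takes are not described. Promoter sequences are from RefSeq (GRCh38.p14).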

Additional observations from a re-analysis of the deposited data

How the results depend on the processing

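The 2602 calls (1379 rises, 1223 falls) became 1577 (808 and 769) in the 4 libraries alone, 1227 (559 and 668) with limma on log2(TPM + 1) and 4662 (2528 and 2134) with the replicate block; DESeq2 gave 799 falls. Leaving out 1 library gave 926 to 4260 changed genes, 435 to 2528 rises and 491 to 1732 falls. The other settings for these counts stayed within 1.5 times. No label pairs the replicate numbers; deviations from the group means correlated across genes at 0.28 for NC with siGYS1, -0.02 for NC with the p53 knockdown and 0.13 for siGYS1 with the p53 knockdown, so the block stands as a setting only. Of the 794 held genes, between 669 (limma) and 794 were called with the same sign in the 8 settings other than leaving out single libraries. Over all settings, those that left out 1 library included, GYS1 ran from -4.02 to -3.49. Among 140 named held genes, 1926 of 1935 gene and setting pairs kept call and direction. The 9 that lost the call were all with limma on log2(TPM + 1), among them SPTLC3, ACVR2B and CFL2. Pairs from fits that left out 1 library could not lose a call, because held genes were chosen by passing those fits. Only the pairs from the 8 other settings could do so. The cause of these shifts was not tested.

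Signs turned for 9 described glycogen genes that had not passed. Leaving out 1 library gave log2 fold changes from -0.001 to 0.091 for PYGL, -0.143 to 0.015 for GAA, -0.159 to 0.093 for GSK3A and -0.174 to 0.225 for GSK3B. It gave -0.09 to 0.193 for PPP1R3D, -0.096 to 0.135 for PPP1R3G, -0.171 to 0.095 for PPP1CA, -0.014 to 0.051 for PPP1CC and -0.15 to 0.084 for PASK. PASK was at 0.089 with limma on log2(TPM + 1). With length-corrected offsets GSK3A was at 0.011, GSK3B at -0.037, PPP1CA at 0.057 and PPP1CC at -0.022. With 2 libraries per group, small changes and genes of few reads are beyond the precision of these data.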

Other observations

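The length that the authors' values imply behind a TPM moved between the groups in a few genes whose read count did not pass the test. Among 12031 tested genes with a mean of at least 1 TPM and a TPM above 0 in both groups, the log2 TPM ratio and the edgeR log2 fold change differed by more than 1 in 14. None of the 14 had changed by count, and in 95% of genes the difference was at most 0.21. In LIPT2, a lipoyl transferase gene of mitochondria, both replicates had the same pattern. Its reads were 85 and 75 in NC and 63 and 72 in siGYS1 (log2 -0.17, edgeR adjusted p = 0.536), and its implied length was 1575 and 1588 bases in NC and 501 and 518 bases in siGYS1. Its TPM went from 3.98 and 3.21 to 9.95 and 9.93. KALRN had the opposite shift, from 2118 and 2045 to 7269 and 5656 bases with 53 and 47 against 76 and 60 reads. NEIL1, a DNA glycosylase gene, went from 1245 and 1264 to 3430 and 3170 bases with 28.0 and 31.1 against 25.1 and 21.1 reads.

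Single libraries made other such values. GPR157 was at 30.1 TPM in siGYS1 replicate 1 and between 2.28 and 2.67 in the other 3 libraries, with 165 to 194 reads in each. DCN, a fibroblast marker, was at 8.55 TPM in NC replicate 2 on 4 reads and an implied length of 32 bases, and at most 0.42 TPM in the others. These genes were chosen after their values were seen, and no test was run on the lengths.

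AHRR and PDCD6-AHRR, whose name marks a read-through of PDCD6 into AHRR, held in opposite directions at levels below 1 TPM. AHRR had 40 and 38 reads in NC and 1.98 and 1 in siGYS1 (log2 -4.51). PDCD6-AHRR had 0 in both NC libraries and 16.1 and 24.1 in siGYS1. Both together had 40 and 38 reads in NC and 18.1 and 25.1 in siGYS1, a smaller shift than either alone, and PDCD6 itself passed the full test downward without holding (-0.42).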
